A study of Mus musculus with 50 samples.

Results

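The cytosolic ribosomal protein genes were followed through motor neuron maturation in mouse spinal cord and in motor neurons made from embryonic stem cells. Members were chosen by symbol alone: genes named Rps or Rpl with a number, plus Rplp0, Rplp1, Rplp2 and Rpsa. The 311 loci named as pseudogenes and the 10 Rps6k kinase genes were left out. The rule gave 93 of the 55385 genes in the files, of which 31 encode small subunit proteins, 46 encode large subunit proteins, and 16 are gene copies or namesakes. Of the 93, 87 passed the filter on low counts in vivo (all 77 subunit genes and 10 copies), and 82 passed it in vitro. Rpl10l and Rpl39l had no count in any library.

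A cytosolic ribosome joins a small subunit, which reads the mRNA, to a large subunit, which forms peptide bonds. Nearly every ribosomal protein is present in a single copy per ribosome and is encoded by a single working gene, so growing cells make these mRNAs in similar and large amounts. In mammals most of these mRNAs begin with a run of pyrimidines, the TOP motif, through which mTOR signalling and LARP1 control their translation. Many ribosomal protein genes also carry small nucleolar RNAs (snoRNAs), the guides of ribosomal RNA modification, within their introns.

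RNA was measured in 28 libraries. The E10.5 samples (3) were whole cells sorted by flow cytometry from HB9-GFP embryos on the C57BL/6 strain, with several embryos pooled for each sample. All later samples were nuclei from C57BL/6 mice carrying Chat-Cre and, as labelled, SUN1-GFP-3xMYC (SUN1-sfGFP-Myc in the study's methods), in which Cre made by cholinergic cells turns on a tagged nuclear envelope protein, so that the nuclei of those cells can be captured on antibody beads. They came from E13.5 (2), P4 (3), P13 (2), P21 (3), P56 (3) and 2 year old mice (2), each from the pooled spinal cords of several animals of both sexes. The cultures used 1 embryonic stem cell line with the same alleles, differentiated into motor neurons in embryoid bodies and then plated on glia from cortex. Nuclei were taken on day 0 in vitro (DIV0, 2), DIV7 (2), DIV28 (3) and DIV28 after tetrodotoxin (TTX), a blocker of voltage-gated sodium channels, throughout (3). The study's methods release nuclei from embryoid bodies and from cultures on glia by separate steps. DIV0 came before growth on glia, so a change from DIV0 is also a change of glia and of nuclear release. These cannot be told apart from time in culture. One library whose title reads DIV0 replicate 3 was counted as DIV28 replicate 3, where its other records place it. Per the study's methods, E10.5 RNA came from brachial, thoracic and lumbar cord, and RNA of later ages from brachial and lumbar cord. A change from E10.5 to E13.5 is thus a change of age, of alleles, of isolation, of cord region and of cell to nucleus at once. These cannot be told apart. In bulk samples fewer cells of a type and less RNA per cell cannot be told apart either.

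Total counts ran from 2704682 to 21823500 per library. The 6 motor neuron markers were detected in every group. The E13.5 and P4 nuclei held more endothelial and erythroid RNA than later ones, and the study's methods report a lower share of tagged nuclei at those ages. The 6 endothelial markers summed to 2751 to 4575 CPM (counts scaled to library size) at E13.5, 1186 to 1649 at P4, 64.2 to 99.4 at P13 and 6.26 to 14.1 at P21. The 6 oligodendrocyte markers went the other way, with 54.8 to 61.9 CPM at E13.5, 354 to 467 at P4 and 1784 to 1821 at P13. The 7 erythroid markers summed to 3312 to 3382 CPM at E13.5 and 239 to 329 at P4, where Hbb-y was at 0. Transcripts overlapping ribosomal RNA took 17.8% of counts at E10.5, 0.892% at E13.5 and 4.19% at P4. The 13 mitochondrial mRNAs summed to 879 to 1120 CPM at E13.5, 1071 to 1129 at P4 and 159 to 444 at P21. In culture they summed to 66.8 to 71.8 CPM at DIV0 and 348 to 544 at DIV28. The 5 nuclear long noncoding RNAs summed to 27707 to 34133 CPM at E13.5, 82129 to 85232 at P4 and 190086 to 205814 at P21. At DIV0 their sum was 110853 to 120020 CPM. The part of these RNAs in the members' changes was not tested.

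Start site sequences are shown first because the shared motif lies there. RefSeq promoter windows on GRCm38 were matched for 57 of the 77 subunit genes. The lines give 50 bases, from 30 before the annotated start to 20 from the start onwards, for the genes that the results turn on, with the longest pyrimidine run within 20 bases of the start in capitals.
Rplp0 (chr5:115559437-115559486, + strand): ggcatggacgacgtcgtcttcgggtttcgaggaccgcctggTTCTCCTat
Rpsa (chr9:120127736-120127785, + strand): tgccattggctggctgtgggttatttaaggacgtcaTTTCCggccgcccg
Rps23 (chr13:90923092-90923141, + strand): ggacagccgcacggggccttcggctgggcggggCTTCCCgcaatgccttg
Rps2 (chr17:24720033-24720082, + strand): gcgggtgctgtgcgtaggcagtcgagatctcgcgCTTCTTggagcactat
Rps3 (chr7:99483690-99483739, - strand): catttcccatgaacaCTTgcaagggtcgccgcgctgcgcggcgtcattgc
Rpl5 (chr5:107900498-107900547, + strand): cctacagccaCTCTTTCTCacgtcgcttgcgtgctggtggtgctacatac
Rpl22l1 (chr3:28805478-28805527, + strand): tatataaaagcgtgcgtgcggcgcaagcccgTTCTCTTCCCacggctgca

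The annotated start need not be the start used in these cells: in Rpl5 the run of 9 pyrimidines begins 20 bases before it, and in Rps3 the longest run held only 3. A set of 4 pyrimidine motifs were searched on the gene's own strand within 20 bases of the start, and they can overlap one another. CTTTTC occurred in 8.77% of the 57 subunit genes and in 1.68% of the 27025 genes with a window. CTTTCC occurred in 17.5% against 2.30%, CTCTTT in 15.8% against 1.81%, and CTTCCT in 14.0% against 3.64%. At least 1 of them was present in 23 of the 57 subunit genes (40.4%) and in 8.58% of all genes. Over the whole window, from 250 bases before the start to 50 after it, and on both strands, CCGGAAG, the core letters bound by ETS family factors such as GABPA, occurred in 42.1% of the subunit genes and 9.93% of all genes. GCCATCTT, letters of the YY1 motif, occurred in 8.77% against 3.19%. GGGCGG, the letters of the Sp1 box, occurred in 61.4% against 38.2%, and TATAAA occurred in 6 of the 57 subunit genes against 15.7% of all genes. The windows of subunit genes had a median GC content of 58.3%, against 52.7% for all windows. These matches describe letters and not binding sites.

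The 93 members together took the largest share of counts in the embryo and the smallest at P21. Their summed counts were 2.69%, 2.87% and 3.23% of the library at E10.5, and 3.49% and 3.65% at E13.5. They were 0.504% to 0.635% at P4, 0.967% and 0.99% at P13, and 0.185% to 0.308% at P21. The share was thus 6.35-fold lower at P4 than at E13.5 and 14.5-fold lower at P21 than at E13.5, and neither pair of groups overlapped. It lay between 0.255% and 0.289% at P56, overlapping P21, and was 0.323% and 0.386% at 2 years, above each P56 library. In culture it was already low at DIV0, with 0.567% and 0.599%. It was lower again, with no overlap, at DIV7 (0.337% and 0.436%, a log2 ratio of -0.59 to DIV0) and at DIV28 (0.261% to 0.540%, -0.67).

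**Figure D1:**
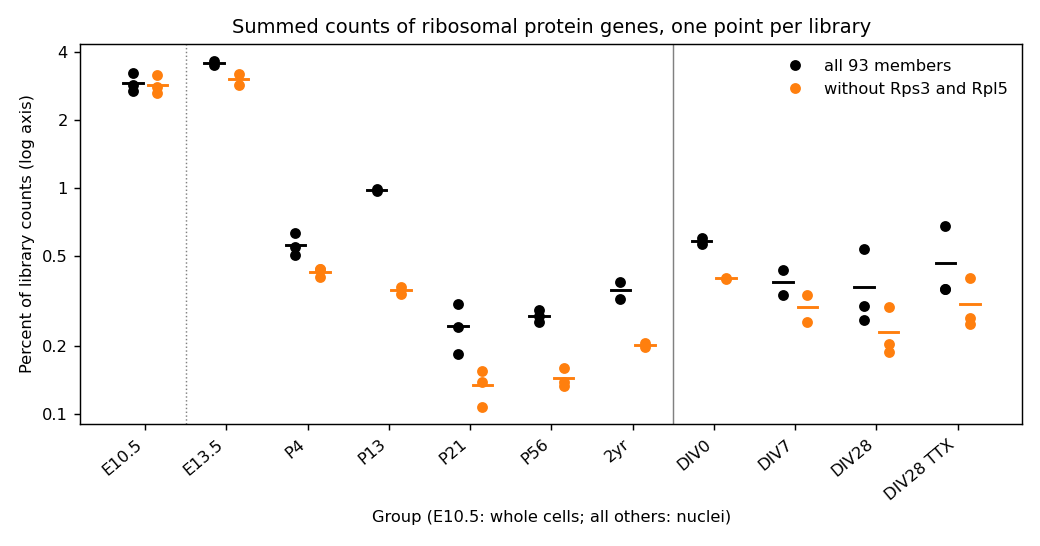
Summed counts of the 93 members as a percentage of all counts in each library (log axis), one point per library with a bar at the group mean, for all members (black) and without Rps3 and Rpl5 (orange). Both series fall from E13.5 to P4 and again from P13 to P21, but only the black series is higher at P13 than at P4.

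From E13.5 to P4 nearly every tested member fell. Of 87, 85 were called lower and 1 higher, where a call means an unadjusted p under 0.001 in edgeR's quasi-likelihood test and at least a 2-fold change. Among all 15030 genes tested, 19.0% were called lower and 23.8% higher. The members' median log2 fold change was -2.65, against 0.12 for all genes. All 31 small subunit genes were lower (median -2.94), as were all 46 large subunit genes (median -2.76). Of the 84 members at 5 CPM or more in both groups, 83 were called lower. Markers of other cells were lower in the same comparison: 4 of 6 endothelial and 5 of 6 tested erythroid markers were called lower, with the sums given above. The 6 fibroblast markers summed to 449 to 814 CPM at E13.5 and 64.6 to 121 at P4 (5 called lower), and the 6 markers of cycling cells to 1111 to 1870 and 192 to 243 (6 called lower). Their part in the members' fall was not tested.

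The stalk proteins of the large subunit, which recruit elongation factors, moved with the rest. Rplp0, which encodes the base of the stalk and is widely used as a reference gene in PCR, had 977, 1145 and 1074 CPM at E10.5 and 389 and 516 at E13.5. Its values were 84.0, 71.5 and 70.8 CPM at P4 and 32.5 and 36.9 at P13. They were 8.93, 12.8 and 17.1 CPM at P21, so no library of a later age up to P21 reached the lowest of the age before. Rplp0 was lower by E13.5 already (log2 fold change -1.33, SE 0.18, adjusted p = 5.8e-06), and fell at P4 (-2.44, SE 0.18), at P13 (-1.09, SE 0.19) and at P21 (-1.47, SE 0.20). From E13.5 to P21 the log2 fold change was -4.99 for Rplp0, -5.70 for Rplp1 and -4.46 for Rplp2, all with adjusted p of 7.2e-12 or less. Rplp1 and Rplp2, the acidic proteins of the stalk, were not called between P4 and P13 (-0.11 and 0.20).

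In the small subunit, Rps23, whose protein lies at the decoding centre, changed most from E13.5 to P21. It had 202, 265 and 212 CPM at E10.5 and 1003 and 1293 at E13.5, a rise (log2 fold change 2.25, SE 0.22, adjusted p = 9e-08) against the direction of the members' median. Its levels were 36.4, 33.4 and 42.9 CPM at P4, 52.2 and 63.1 at P13, and 3.57, 5.53 and 9.69 at P21. The fall from E13.5 to P4 was the largest of the members with at least 10 CPM throughout 1 of the groups (-4.78, SE 0.24, adjusted p = 1.7e-10). From E13.5 to P21 it came to -7.38 (SE 0.28, adjusted p = 2e-12). Rps6, the substrate of S6 kinase, was at 319 and 401 CPM at E13.5 and 6.71 to 10.1 at P21 (-5.20, SE 0.23). Rpsa, which is also known as the laminin receptor, fell less, from 752 and 1182 CPM at E13.5 to 80.7, 97.1 and 138 at P21 (-3.07, SE 0.21).

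In the large subunit, Rpl3, which lies close to the peptidyl transferase centre, fell from 518 and 635 CPM at E13.5 to 56.6 to 63.6 at P21 (log2 fold change -3.13, SE 0.14). Rpl10, which joins late and completes the large subunit, fell by 3.66 on the log2 scale (SE 0.17). The small proteins Rpl39 (-5.71) and Rps29 (-6.30, from the small subunit) fell further, and Rpl5, which with Rpl11 and 5S rRNA binds MDM2, fell least among the subunit genes (-1.90, SE 0.38, adjusted p = 0.00022). The Rpl5 call was lost without E13.5 replicate 2 (-1.75) and without P21 replicate 1 (-1.68). In all, 86 of 87 tested members were called lower at P21 than at E13.5 and 0 higher, against 26.3% and 29.8% of all genes. The median was -4.44, with -4.57 for the small and -4.45 for the large subunit and 0.15 for all genes.

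**Figure D2:**
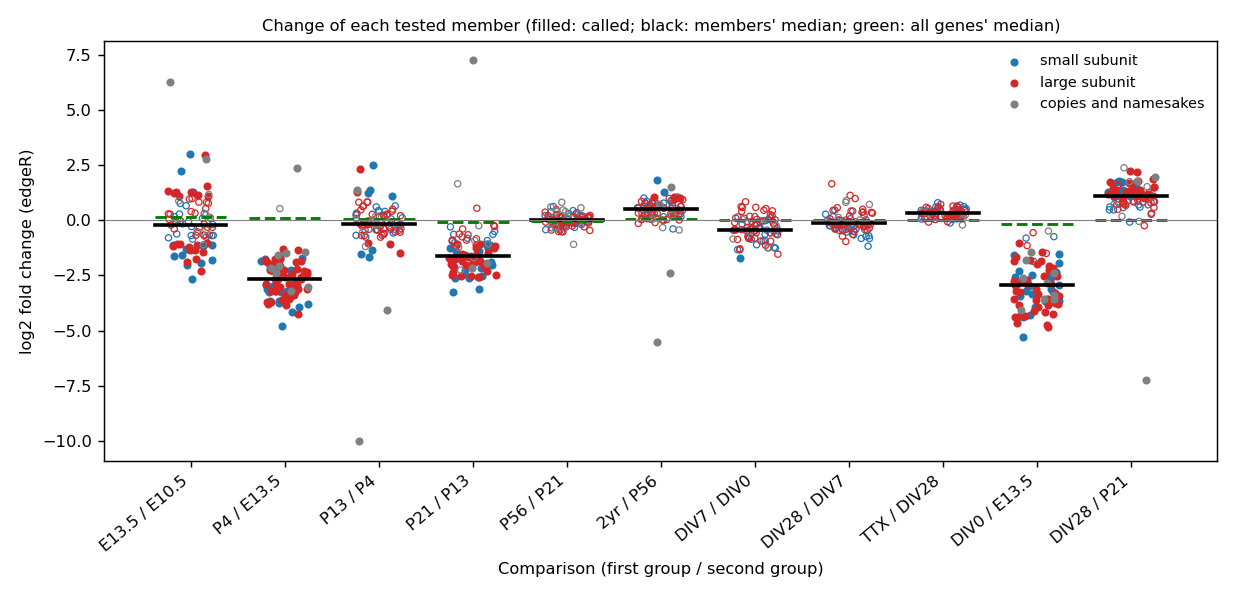
Log2 fold change of each tested member (edgeR) in 11 comparisons, coloured by subunit, filled where called, with the members' median in black and the median of all tested genes in green. The medians lie well below 0 for P4 against E13.5, P21 against P13 and DIV0 against E13.5, and the far outlying grey points are fitted changes of Rps27rt, which was at 0 counts in some groups, so that their size is not a measured fold.

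The step from E10.5 whole cells to E13.5 nuclei went in both directions. Of 87 members, 14 were called higher and 22 lower, against 24.6% and 19.4% of all genes, and the median was -0.19. Rps2, from the small subunit, was the lowest: 1314, 1603 and 1296 CPM at E10.5 became 238 and 242 (log2 fold change -2.64, SE 0.18, adjusted p = 1.4e-09). Rpl37a followed (-2.28). Rps3 and Rpl5 rose (2.99 and 2.95), and so did Rps3a3, a copy of Rps3a1 by name (6.25), from 0.517 to 1.85 CPM to 73.8 and 99.9 CPM. The counts of Rps3a3 were fractional, because RSEM splits reads that could come from more than 1 gene by estimate. The values of Rps3a3 are therefore uncertain. The 3 small subunit genes called higher stood against 10 called lower, while 9 large subunit genes were called higher and 12 lower. The 6 endothelial, 6 fibroblast and 6 tested erythroid markers were all called higher in this comparison, and their part was not tested.

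Between P4 and P13 the summed share rose, but most members did not pass the test. There were 7 members called higher and 8 lower, against 5.80% and 7.54% of all genes, and the median was -0.16. Rps3 had 453, 963 and 1306 CPM at P4 and 5342 and 4750 at P13 (log2 fold change 2.52, SE 0.32, adjusted p = 1.5e-05). Rpl5 had 91.8, 245 and 354 CPM at P4 and 1174 and 1089 at P13 (2.34, SE 0.39, adjusted p = 0.00019). Rps3 and Rpl5 together made up 1.91% of the members' counts at E10.5, 15.3% at E13.5, 23.3% at P4 and 64.0% at P13. Without these 2 genes, chosen after their values were seen, the summed share was 0.404% to 0.441% at P4 and 0.339% and 0.366% at P13, so that the log2 ratio of the means turned from 0.80 to -0.28. Over this step the summed oligodendrocyte markers went from 354 to 467 CPM to between 1784 and 1821. The endothelial markers went from 1186 to 1649 CPM to between 64.2 and 99.4. Markers of cycling cells went from 192 to 243 CPM to between 21.7 and 29.7. The part of these cells in the members' changes was not tested.

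Among the other members called higher at P13 were Rps2 (1.36), Rpl30 (1.27), Rps21 (1.25) and Rpl22l1 (1.37). The call of Rpl30, and that of Rplp0 as lower, were lost without P13 replicate 1 (1.02 and -1.02). Rps2, Rps3, Rpl5 and Rpl30 each hold an annotated snoRNA gene. In GENCODE vM21, 30 of the 77 subunit genes hold at least 1 snoRNA, and in 22 of them a snoRNA lies inside an exon of a listed transcript. Rps3 (chr7:99477896-99483738, - strand) holds Snord15a and Snord15b, and Rpl5 (chr5:107900502-107909005, + strand) holds Snord21 and 2 further snoRNAs. The host genes were listed after these values were seen and carry no test. Among the 30 hosts, 5 were called higher and 0 lower at P13 with a median of 0.22, and among the 47 other subunit genes 1 was called higher and 6 lower with a median of -0.23. From E13.5 to P21 the medians were -3.70 for hosts and -4.89 for the others, with every gene of both sets called lower. The hosts' median was also the higher at P4 against E13.5 (-2.60 and -3.02) and DIV0 against E13.5 (-2.58 and -3.24). It was the lower at E13.5 against E10.5 (-0.30 and -0.21) and P21 against P13 (-1.688 and -1.635). The same held for DIV28 against DIV0 (-0.80 and -0.47), DIV28 against P21 (0.96 and 1.19) and 2 years against P56 (0.46 and 0.57).

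The lengths that RSEM gave the members also differed between groups. RSEM gives each gene an effective length, a mean over its transcripts weighted by their estimated abundance. The length of each transcript is first corrected for the fragment sizes of the library. This length can thus differ through the transcripts or through the fragment sizes, which were not told apart. For Rps3 it was 1700 bases ± 11.5 (SD, n = 3) in E10.5 cells and 2797 ± 35.2 (n = 2) at E13.5, and it lay between 2868 and 2972 in the later groups. For Rpl5 it went the other way, from 1440 bases ± 17.9 (n = 3) at E10.5 to a mean of 863 at E13.5 and 764 ± 0.933 (n = 2) at P13. Rpsa went from 1072 bases at E10.5 and 1432 at E13.5 to 322 at P21, and Rpl30 from 391 at E10.5 to 1334 at P56. Rplp0 stayed between 1079 and 1163 bases. Over the 77 subunit genes the median ratio of this length to E10.5 was 0.853 at E13.5 and 0.866 at P13. It lay between 0.923 and 1.04 in the other groups. Of the 77 subunit genes, 61 have a listed transcript with a retained intron. The share of the changes in reads that came from introns, snoRNAs or partly spliced RNA was not tested.

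**Figure D3:**
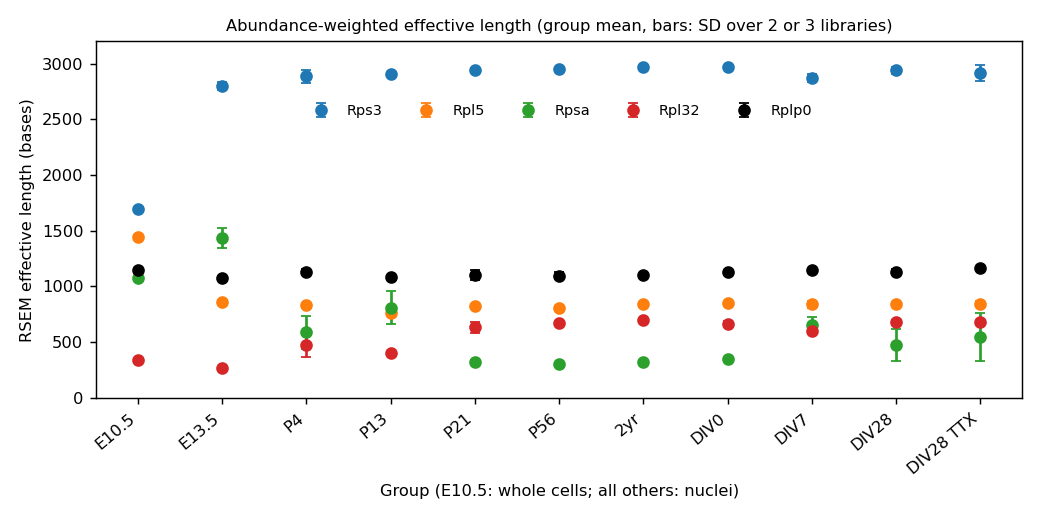
RSEM effective length in bases for Rps3, Rpl5, Rpsa, Rpl32 and Rplp0, as the mean of each group with bars of 1 SD over 2 or 3 libraries. Rps3 is longer and Rpl5 shorter in every group of nuclei than in the E10.5 cells, and Rplp0 hardly moves.

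From P13 to P21 the members fell a second time. Of 87, 58 were called lower and 1 higher, against 5.80% and 1.50% of all genes, and the median was -1.63 with -0.07 for all genes. Among the 60 members at 5 CPM or more in both groups, 42 were called lower and 0 higher. Rps23 (log2 fold change -3.24, SE 0.27, adjusted p = 9.6e-07) and Rps29 (-3.13, SE 0.27) fell most, and Rplp1 fell by 2.14. Rpsa (-0.29), Rpl12 (-0.23) and Rpl32 (0.55) did not pass the test. Over the same step the summed endothelial markers went from 64.2 to 99.4 CPM to 6.26 to 14.1 (6 of 6 called lower). The oligodendrocyte markers went from 1784 to 1821 CPM to between 1000.03 and 1358, and the astrocyte markers from 306 to 436 CPM to between 145 and 194 (2 of 6 called lower in each list). Their part in the fall was not tested.

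No change of the members was called from the juvenile to the young adult cord. Between P21 and P56, edgeR called 0 of 87 members, against 0.0466% of all genes called higher and 0.126% lower. DESeq2 also called 0, and 2 members were higher and 4 lower at an unadjusted p under 0.05, with no share of all genes given at that limit. The median was 0.03. All 77 subunit genes stayed at 1 CPM or more in every library of every group, and 56 stayed at 5 CPM or more in every P21 library. The SD of log2 CPM per kilobase across the 77 genes was 0.753 at E10.5, 1.12 at E13.5 and 1.2 at P21, so the genes were less alike in level per length in the nuclei than in the E10.5 cells.

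At 2 years most members were a little above P56. The median was 0.52 on the log2 scale, against 0.07 for all genes, and 79 of 87 estimates were positive. Of 87, 6 members were called higher and 2 lower, against 0.499% and 0.186% of all genes. At an unadjusted p under 0.05, 35 were higher and 2 lower, with no share of all genes given at that limit. Rps2 had 34.5, 36.1 and 32.2 CPM at P56 and 134 and 104 at 2 years (log2 fold change 1.83, SE 0.17, adjusted p = 3.1e-05). Rpl22l1 had 6.92 to 9.37 CPM at P56 and 22.4 and 20.6 at 2 years (1.51, SE 0.27, adjusted p = 0.015). For both genes each old library lay above each P56 library. Rps16 (1.3), Rpl27a (1.07) and Rpl31 (1.06) were also called, and Rplp0 was not (0.86, SE 0.22, adjusted p = 0.094). Only 2 old libraries were measured, and the count of calls was 5 without the first of them.

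**Figure D4:**
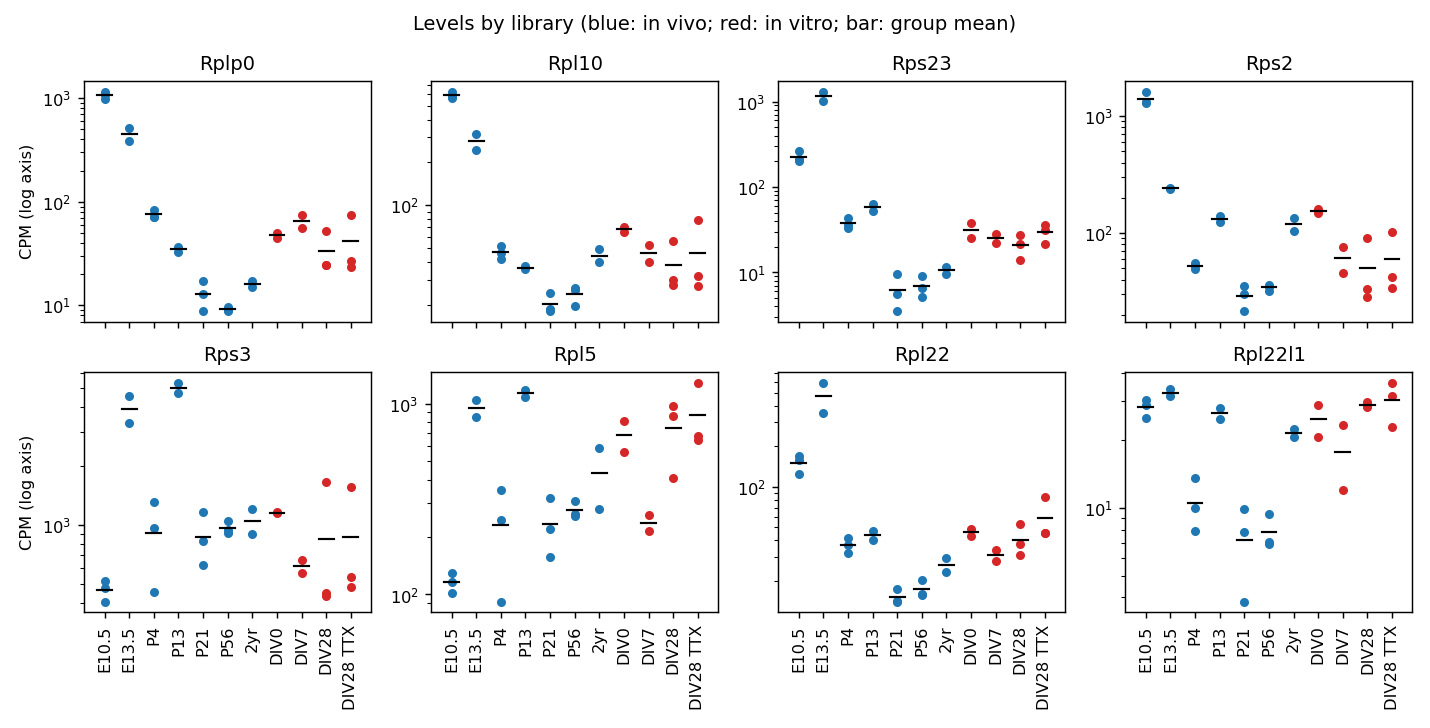
Levels in CPM (log axis) of 8 members in every RNA library, in vivo in blue and in vitro in red, with bars at the group means. Rplp0 and Rpl10 descend from E10.5 to P21, Rps3 and Rpl5 peak at E13.5 and P13, and Rps2 and Rpl22l1 are higher at 2 years than at P56.

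Most gene copies fell with the rest from E13.5 to P21, to unequal extents. Rpl22l1, a paralog whose protein can replace that of Rpl22, varied in counts relative to Rpl22, down from E10.5 to E13.5 and up again later. The counts of Rpl22l1 were 19.1% ± 4.68 of those of Rpl22 (SD, n = 3) at E10.5, 7.35% ± 2.25 (n = 2) at E13.5, 28.1% ± 4.17 (n = 3) at P4, 60.7% ± 2.22 (n = 2) at P13, 47.5% ± 21.6 (n = 3) at P21, 44.9% ± 1.39 (n = 3) at P56 and 82.1% ± 8.29 (n = 2) at 2 years. These ratios are not corrected for length. The effective length of Rpl22 at E13.5 was 0.442 of that at E10.5, the lowest ratio of the 77 subunit genes. A change of the count ratio between groups can therefore also hold a change of length. From E13.5 to P21 Rpl22 fell by 4.82 and Rpl22l1 by 2.05 on the log2 scale. Rpl36al, the intronless paralog of Rpl36a, had counts of 33.8% ± 4.6 (n = 2) of those of Rpl36a at E13.5 and 173% to 233% at P21. Rps27l, the paralog of Rps27, had 1 to 4 counts in each P21 and P56 library. Of the 10 copies and namesakes tested, 8 were called lower at P4 than at E13.5, among them Rpl7l1 (log2 fold change -1.44), a call lost without E13.5 replicate 2 (-1.08), and Rps19bp1 (-2.17), whose protein binds Rps19 and is no part of the ribosome. Rpl3l, Rpl6l, Rpl10l, Rpl32l, Rpl39l and Rps12l1 did not reach the filter on low counts.

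Rps27rt and Rpl37rt, retrocopies of Rps27 and Rpl37, were the only 2 tested members not called lower at P4 than at E13.5. Before TMM scaling, Rps27rt was at 29.4, 20.7 and 23.1 CPM at P4 and at 0 counts in both P13 libraries, so its level was at least 60.0-fold higher at P4, with P13 set to its floor of 3 counts in each library. It was also at 0 counts in each DIV7, DIV28 and TTX library, and was at 2.51 to 3.87 CPM at P21. Rpl37rt was at 21.5 to 28.4 CPM at P4 and 1.37 and 1.09 at P13. A retrocopy is nearly identical to its parent, and RSEM splits the reads that both could give by estimate, so these values are uncertain.

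In culture the members started low and few passed the test afterwards. At DIV0, 80 of 87 tested members were lower than at E13.5 and 0 higher, against 24.3% and 15.1% of all genes, with a median of -2.92. Rplp0 was at 50.3 and 44.8 CPM at DIV0, far below its E13.5 libraries (log2 fold change -3.34, SE 0.31), and Rps23 was at 37.9 and 25.5 (-5.26, SE 0.36). The endothelial and erythroid markers summed to at most 2.57 and 1.21 CPM at DIV0. The mitochondrial mRNAs summed to 66.8 to 71.8 CPM at DIV0, against 879 to 1120 at E13.5. The part of these RNAs in the difference was not tested. From DIV0 to DIV7, 1 of 82 members was called lower and 0 higher, against 2.81% and 8.36% of all genes. This was Rpsa, with 311 and 416 CPM at DIV0 and 90.5 and 132 at DIV7 (-1.72, SE 0.32, adjusted p = 0.0025). The groups did not overlap for Rpsa, but the call was lost when DIV0 replicate 2 or DIV7 replicate 1 was left out. The fibroblast markers summed to 1.21 to 2.00 CPM at DIV0 and 27.2 to 455 at DIV7, and the astrocyte markers to 4.29 to 4.86 and 75.1 to 167. Markers of cycling cells went the other way, from 374 to 475 CPM to between 11.5 and 14.3. Their part in the members' changes was not tested.

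At DIV28 edgeR called 0 of 82 members against DIV7, where 3.62% of all genes were higher and 4.09% lower, and 1 lower and 0 higher against DIV0, where 7.45% were lower and 11.5% higher. DESeq2 called 2 members against DIV7, and 2 were higher and 2 lower at an unadjusted p under 0.05. Against DIV0, DESeq2 called 5 lower and 0 higher, and 25 were lower and 0 higher at an unadjusted p under 0.05. With an adjusted p under 0.05 and 2-fold in edgeR, 11 were lower and 0 higher. No shares of all genes are given for these counts. The medians were -0.12 and -0.48. Against DIV0 the single call was again Rpsa (-1.30, SE 0.28, adjusted p = 0.0033). The call was lost in 4 of the 5 fits that left out 1 library, and also when the library titled DIV0 was counted at DIV0. DIV28 replicate 1 stood apart in some members, with Rps3 at 1651 CPM against 445 and 430.1 in the others, and TTX replicate 1 did so likewise (1569 against 483 and 542).

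Silencing with TTX gave 0 calls among 82 members in edgeR and in DESeq2, against 0.279% of all genes called higher and 0.403% lower. At an unadjusted p under 0.05, 7 members were higher and 0 lower, with no share of all genes given at that limit. The estimates leaned one way, with 78 of 82 above 0 and a median of 0.32. Most tested initiation factors, elongation factors and genes of ribosome biogenesis also had estimates above 0. The members shifted together between replicates, with a median deviation of 0.295 in DIV28 replicate 1 and -0.348 in replicate 3. Their estimates are thus not separate observations. Of the members at 10 CPM or more throughout a group, Rps9 was highest, with 35.8, 28.5 and 21.8 CPM at DIV28 and 57.8, 47.7 and 43.1 with TTX (log2 fold change 0.80, SE 0.27, adjusted p = 0.41). The 2 groups of Rps9 values did not overlap, but the difference did not pass the correction over all genes. Rplp2 came next (0.72, SE 0.27, adjusted p = 0.47), and Rps10 was lowest of these (-0.12). The summed share was 0.540%, 0.300% and 0.261% at DIV28 and 0.680%, 0.359% and 0.358% with TTX, in the order of the paired cultures. The ranges overlapped, but the share was higher with TTX in 3 of 3 pairs. The log2 ratio of the means was 0.34. Leaving out 1 library while keeping its partner gave -0.032 without TTX replicate 1 to 0.73 without DIV28 replicate 1. Replicate 1 was highest in both groups and each such fit breaks a pair, so this range does not measure the spread between pairs.

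The in vivo fall and the in vitro course differed when tested against each other. For the difference between the change from DIV0 to DIV28 and that from E13.5 to P21, 81 of 87 members were called higher and 0 lower, against 24.2% and 17.5% of all genes, with a median of 4.12 on the log2 scale and 0.16 for all genes. The difference was 6.99 for Rps23 (SE 0.46, adjusted p = 1e-10), 6.46 for Rpl38 (SE 0.52), 4.67 for Rplp0 (SE 0.40) and 1.98 for Rpsa (SE 0.34). Rps2 (1.5, adjusted p = 0.0076) and Rpl30 (1.18, adjusted p = 0.014) were not called. At the end points, 42 of 87 members were higher at DIV28 than at P21 and 1 lower, against 13.3% and 13.1% of all genes, with a median of 1.10. Fitted on those libraries alone, 23 were higher and 1 lower. Of the members at 10 CPM or more throughout a group, Rpl36a (2.21, SE 0.34) and Rpl41 (2.17, SE 0.23) were highest, while Rps3 (-0.08) and Rpl30 (-0.25) did not pass the test.

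Of other genes of translation, most initiation factors also fell. Of 30 initiation factor genes, 23 were called lower and 0 higher at P4 against E13.5, with a median of -1.51, and 26 and 0 at P21 against E13.5, with a median of -2.13. Of all genes 19.0% were lower at P4, and at P21 26.3% were lower and 29.8% higher. Of 8 elongation factor genes, 5 were called lower at P21 and 0 higher. Eef1a1, which brings aminoacyl-tRNA to the ribosome, was lowest (-5.24), while Eef1a2, its neuron and muscle counterpart, had a log2 fold change of 1.34 and was not called. Of 50 genes of ribosome biogenesis 26 were lower and 1 higher (median -1.07). Of 14 genes of mTOR signalling and TOP mRNA control 4 were lower and 3 higher (28.6% and 21.4%, near the shares of all genes, with a median of -0.28), with Mycn at -5.95 and Mtor itself at -0.04.

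Open chromatin at the members' starts was present throughout, also where the RNA was low. ATAC-seq, in which a transposase cuts accessible DNA, was made in 22 libraries, 2 for each group. Per the study's methods, its cells or nuclei were sorted by flow cytometry, and the cord samples of each age included thoracic cord. Of 83 tested members with a protein-coding start, 82 had a peak within 500 bp in each of the 22 libraries. The exception was Rps27rt, with a peak in 1 library. Among all 12517 tested genes with such a start, 92.6% to 95.6% had a peak in a given library. Gene starts in general held high-ranking peaks. The median member peak stood at the top 1.78% to 5.68% of all peaks of its library by −log10 p in the groups of nuclei, where the median gene stood at 2.92% to 7.69%. In the E10.5 libraries the members ranked below the median gene, at 8.23% against 7.19% in 1 library and further down in the other. Libraries held 93736 to 273452 peaks, so percent ranks are compared only within a library. Relative to the median gene of the same library, the enrichment at Rplp0 was 1.11 at E10.5, 1.37 at E13.5 and 1.39 at P21, and at Rps23 it was 1.01, 1.11 and 1.33. The authors called peaks in each library separately and the enrichment is not scaled between libraries, so ranks and ratios were taken within a library.

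**Figure D5:**
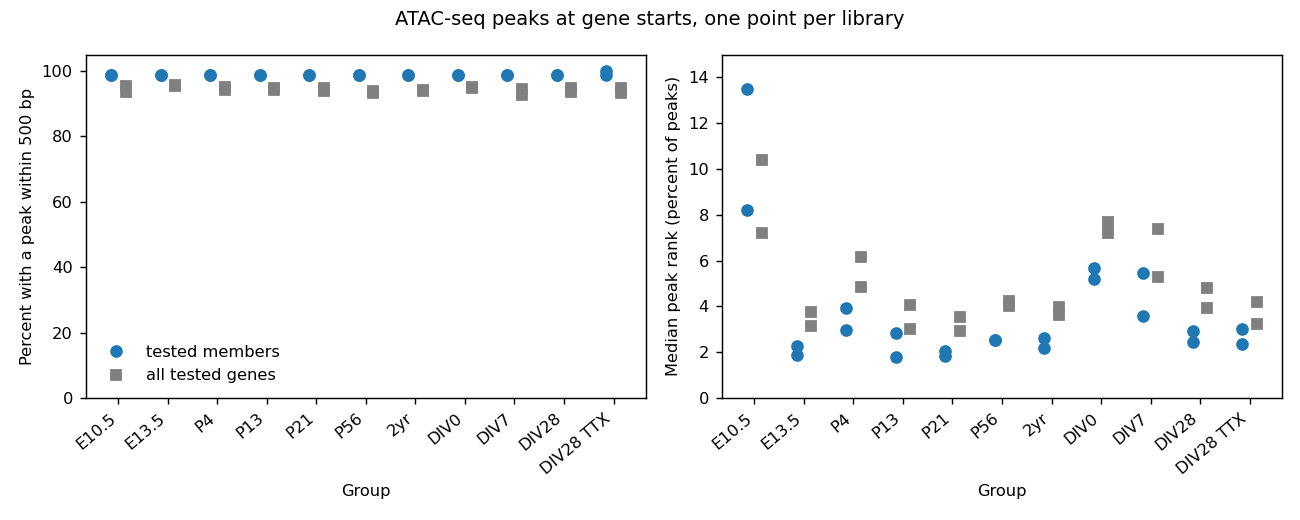
Percentage of gene starts with an ATAC-seq peak within 500 bp (left) and median rank of those peaks by −log10 p among all peaks of the library, where a lower percentage is a stronger peak (right), with one point per library for tested members (blue) and all tested genes (grey). The blue points sit at or near 100% in every library and rank above the grey in the groups of nuclei on the whole.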

How the data were processed

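RNA-seq libraries were made by the authors with a stranded total RNA kit and ribosomal RNA depletion, trimmed with Trim Galore, aligned to mm10 with STAR 2.5.2b and quantified with RSEM 1.3.0, per the submitters' processing notes. The deposited expected counts per gene were rounded to whole numbers. Counts from the deposited files were then scaled with TMM and tested with edgeR 4.0.16 (quasi-likelihood) in 3 fits, in vivo (18 libraries), in vitro (10) and both without E10.5 (25), over genes at 5 CPM or more in every library of a group. Adjusted p-values are Benjamini-Hochberg over all genes tested, and SEs are of the log2 fold change. The summed share and the sums of gene lists in CPM are without TMM scaling. Levels of named members in CPM are after TMM scaling, except those of Rps27rt and Rpl37rt. The study's limits, p under 0.001 and 2-fold, were used with the unadjusted p, and nothing in the sources used here says which edgeR test it ran. The share of all genes called is given at these limits only. DESeq2 1.42.0 was an alternative, and the edgeR fit was tested on simulated data.

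For ATAC-seq the authors called peaks per library with MACS2 2.2.7.1 on mm10 and deposited, among other columns, the fold enrichment ratio over background and −log10 p- and q-values. The deposited fold enrichment was used for peak strength, and the deposited −log10 p-value for ranks. Depth limits low members: 3 counts are the floor used. Each in vivo replicate pooled several animals, per the study's methods, so p-values there measure the spread between pools. Nothing in the labels says how separate the cultures were. The replicate numbers pair TTX with DIV28 cultures (correlations of deviations 0.599, 0.498 and 0.673), and the study's own sample table pairs them.

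Members and gene lists were chosen with earlier results of these data known. Named genes were those fixed for their role or as paralogs, the 2 highest and 2 lowest members with 10 CPM throughout 1 group in each comparison, members called against the median (up to 5), and the extremes of other lists. Rps16, Rps21, Rpl27a, Rpl31 and Rpl38 at single steps, the snoRNA hosts and Rpl5 and Rps3 as a pair were named after their values were seen. Some genes are not reported here.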

Additional observations from a re-analysis of the deposited data

Results flagged for a closer look

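The change from DIV0 to DIV28 differed from the change from E13.5 to P21 in 81 of 87 tested members, by the test of the difference itself in edgeR. All of these were called higher, and of all genes 24.2% were called higher and 17.5% lower. Among the members fixed for their role or standing highest, the log2 difference was 6.99 for Rps23, 6.46 for Rpl38, 5.85 for Rplp1, 5.13 for Rps6, 4.67 for Rplp0, 3.86 for Rplp2 and 1.98 for Rpsa. In the cord 86 of 87 members were called lower over that span, against 26.3% of all genes. In culture 1 of 82 was called lower from DIV0 to DIV28, against 7.45% of all genes. With an adjusted p under 0.05 and 2-fold 11 were lower in culture, with no share of all genes given at that limit. The starting levels were unequal, as DIV0 lay below E13.5. The E13.5 nuclei held endothelial and erythroid RNA, and more mitochondrial mRNA than the DIV0 nuclei, which also came before growth on glia. The part of these in the difference was not tested.

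The ribosomal protein pseudogenes named -ps, which the choice of members left out, took 0.138% of counts at E13.5, the highest mean of any group in vivo, against 0.0701% at E10.5. Any pseudogenes under other names are not in this sum. Reads of a parent gene and of its pseudogene are hard to tell apart, and no test was run on them.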

How the results depend on the processing

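Of the values recomputed without leaving out a library, 312 kept their direction and side of the limit, or moved by less than the spread between replicates, 17 moved further, 19 counts grew, 7 shrank and 1 value reversed. The cause of each change was not tested, except where fewer genes or samples make it plain. The reversed value is the summed share at P13 against P4, a log2 ratio of 0.80 that became -0.28 without Rps3 and Rpl5, an alternative added after seeing the data, and 0.27 per effective length. The same exclusion moved the ratio to 0.076 for E13.5 against E10.5 (main 0.29), -2.82 for P4 against E13.5 (-2.67), -1.39 for P21 against P13 (-1.99), -4.50 for P21 against E13.5 (-3.86) and -2.93 for DIV0 against E13.5 (-2.61). Per effective length it was 0.68 for E13.5 against E10.5 and -2.37 for P4 against E13.5, and without genes that overlap ribosomal RNA 0.016 for the former and -2.49 for DIV0 against E13.5.

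With an adjusted p under 0.05 and no fold limit, 62 members were called at E13.5, 35 at P13, 4 at DIV7, 3 at DIV28 against DIV7, 17 against DIV0 and 74 against P21. No share of all genes is given at that limit, so these counts cannot be set against one. With the 2-fold limit kept these were 4, 2 and 11 for DIV7, DIV28 against DIV7 and DIV28 against DIV0. The main in vitro counts of 1, 0 and 1 in those 3 comparisons were 7, 2 and 7 with no filter on low counts, and 2, 2 and 5 in DESeq2. With only the compared libraries, 7 were called at DIV7, 24 at DIV28 against P21 (main 43) and 5 at 2 years (main 8). The last count was also 5 without genes that overlap ribosomal RNA, and without the paralogs or all 16 copies. The P4 median was -2.88 without either set of copies and -2.87 with no filter (main -2.65).

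Counting the library titled DIV0 replicate 3 at DIV0 gave 0 calls at DIV7 and 0 at DIV28 against DIV0, with medians of -0.19 and -0.13, and moved the median to -3.28 for DIV0 against E13.5 and to 4.43 for the difference between systems. With the replicate block, 4 members were called at DIV7, 2 at DIV28 against DIV7 and 2 against DIV0. The block changed no other call count by over 1.5 times, and TTX stayed at 0. Only the TTX pairs share more than a number: correlations of same-numbered samples elsewhere lay between -0.162 and 0.188.

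Leaving out 1 library at a time gave medians of -0.42 to -0.00076 at E13.5, -2.89 to -2.56 at P4, -1.71 to -1.46 at P21, -4.58 to -4.19 for P21 against E13.5, 0.34 to 0.62 at 2 years and 3.83 to 4.24 for the difference between systems. Counts ran from 5 to 8 at 2 years, 0 to 1 at DIV7, 0 to 3 at DIV28 against DIV0 (0 without DIV0 replicate 1, 3 without DIV28 replicate 1) and 0 to 1 against DIV7 (1 without DIV28 replicate 3). The summed ratio at DIV7 ran from -0.79 to -0.42. Among 144 calls of named genes, none reversed and 23 lost the call in some setting.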
